A study of Mus musculus with 6 samples.

Results

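Splicing factors and heterogeneous nuclear ribonucleoproteins (hnRNPs) were followed in F4/80+ cells of the mouse bone marrow, as the genes whose symbol begins with Srsf, Sf3a, Sf3b, Snrp, Prpf, Hnrnp or U2af. The deposited table holds 66 such genes of 11489, of which 11 are Snrp, 3 U2af, 9 Sf3a or Sf3b, 13 Prpf, 10 Srsf and 20 Hnrnp genes. All 66 passed the filter on low values, an average of 1 FPKM or more across the 6 libraries. FPKM divides a gene's sequenced fragments by its length and by library size, so levels of different genes can be compared per length.

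RNA was sequenced from 3 libraries of F4/80+ cells that carried eGFP from an Epor reporter (Epor-eGFP+) and 3 libraries of F4/80+ cells without it (Epor-eGFP-). F4/80 is a macrophage surface protein, Epor encodes the erythropoietin receptor, and the labels call both groups erythroblastic island macrophages, the cells around which erythroblasts mature. Strain, age and sex are not given in the labels used here, and both groups were sorted by flow cytometry. No label ties a library to an animal, so every p-value here rests on variation among the 6 libraries that may be only technical. The table numbers the libraries of each group 0, 1 and 2, and values per library are given in that order. The comparison asks how splicing factor transcripts differ between F4/80+ cells with and without the reporter.

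Most introns are removed by the major spliceosome, which is built from small nuclear ribonucleoproteins (snRNPs) named U1, U2, U4, U5 and U6 after their RNAs. A ring of Sm proteins encloses most of these RNAs. U2AF and the SF3 complexes bring the U2 snRNP to the 3' end of the intron. Several PRPF proteins help to build the tri-snRNP of U4, U5 and U6 or to activate the spliceosome for catalysis. SR proteins (Srsf genes) mostly favour inclusion of the exons they bind, whereas hnRNPs often repress splice sites and also package and transport RNA.

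In Epor-eGFP+ cells, 16 of the 66 members rose and 3 fell, at an adjusted p under 0.05 (limma on log2(FPKM + 1), adjusted over all 10964 genes tested). Among all genes tested, 22.7% rose and 26.3% fell, 49% in all, so the 24.2% of members that rose lies near that background, while 4.55% of members fell. The median log2 fold change, Epor-eGFP+ minus Epor-eGFP-, was 0.11 over the members and -0.01 over all genes tested. The differences were small on the log2(FPKM + 1) scale: they ran from -0.40 to 0.61, and 0 of 66 members reached an absolute value of 1, against 9.49% of all genes tested. Without the added 1 FPKM, the mean of Prpf40b, the least abundant member, was 117% higher in Epor-eGFP+. That gene passed the filter on low values only through Epor-eGFP+, as its Epor-eGFP- mean was 0.813 FPKM. Libraries of the groups did not overlap in 16 members that were higher and 4 that were lower in Epor-eGFP+, beside 28.4% and 31.9% of all genes tested. By family, 7 of 11 Snrp genes and 3 of 3 U2af genes were higher, and 0 of 10 Srsf and 0 of 20 Hnrnp genes were called in either direction. When the number of the library entered as a replicate block, 23 members rose and 4 fell, beside 28% and 30.4% of all genes, and the calls then included 4 higher and 1 lower Srsf genes and 3 higher Hnrnp genes. With 3 against 3 libraries an exact permutation test of a single gene cannot give a p below 0.1. In bulk RNA of a sorted population, fewer cells of a type and less RNA per cell cannot be told apart.

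The number of members called higher depended on single libraries, as did the share of all genes. It was 8 without Epor-eGFP+ library 0 (14.9% of all genes in that fit), 8 without Epor-eGFP+ library 1 (20.4%) and 7 without Epor-eGFP- library 0 (15.8%). It was 21 without Epor-eGFP+ library 2 (22.6%). With libraries rescaled to a common total, 18 members rose and 2 fell, beside 27.9% and 19% of all genes, and the share of higher genes among all called genes was 59.5% in place of 46.3%.

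**Figure D1:**
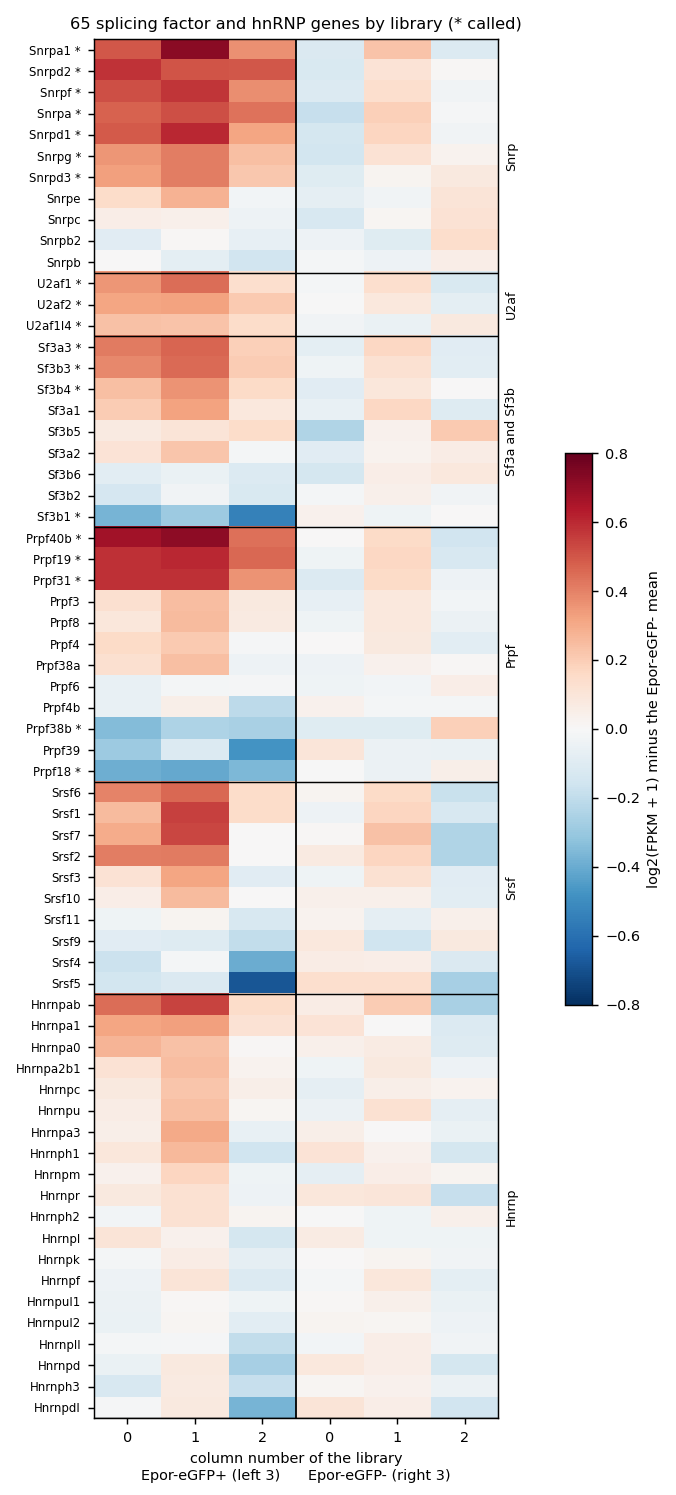
Each row is a member, with 1 member not shown, and each column a library, with Epor-eGFP+ libraries 0 to 2 on the left and Epor-eGFP- libraries 0 to 2 on the right. Colour gives log2(FPKM + 1) minus the mean of the Epor-eGFP- libraries, and an asterisk marks the 19 called genes. The Snrp block and the U2af genes are mostly red on the left, and Epor-eGFP+ library 2 has the lowest of the left values in most rows.

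Levels of most members moved together within a library. Summed over the 66 members, the level was 5504, 5827 and 5006 FPKM in the 3 Epor-eGFP+ libraries, and 4967, 5253 and 4865 FPKM in the 3 Epor-eGFP- libraries. Library 1 was highest in each group, and library 2 lowest. Within Epor-eGFP+, 56 of 66 members were highest in library 1 and 57 were lowest in library 2, while within Epor-eGFP- library 1 held the highest value of 39 members and library 2 the lowest of 37. The share of all genes tested that were highest or lowest in these libraries was not counted. The order is therefore not shown to be particular to splicing genes.

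Epor averaged 5.96 ± 2.26 FPKM in Epor-eGFP+ and 0.335 ± 0.105 FPKM in Epor-eGFP-, and Adgre1, which encodes F4/80, averaged 167 ± 65.5 and 136 ± 3.85 FPKM in the same order of groups (SD, n = 3 each). Marker genes of other states differed between the same libraries. The summed level of 18 proliferation genes, of which 4 rose and 0 fell (13 and 0 with the replicate block), was 1472, 1640 and 1228 FPKM in the 3 Epor-eGFP+ libraries, and 1166, 1412 and 1033 FPKM in the 3 Epor-eGFP- libraries. The 4 azurophil granule genes of promyelocytes all rose, with sums between 7532 and 9353 FPKM in Epor-eGFP+ and between 1428 and 2673 FPKM in Epor-eGFP-. In both groups these sums had the same order of libraries as the members. The erythroid, macrophage, neutrophil, monocyte and eosinophil sums had another order in Epor-eGFP-, and the macrophage sum ran in reverse in both groups. In Epor-eGFP+ the neutrophil and monocyte sums had the members' order. An order of 3 libraries is a coarse measure, and it was not tested. Of 14 erythroid genes 12 rose and 0 fell, with sums of 597, 432 and 418 FPKM in Epor-eGFP+ and 71.8, 64.4 and 52.1 FPKM in Epor-eGFP-. Of 16 macrophage genes 12 rose and 0 fell, with sums of 3852, 2485 and 8098 FPKM in Epor-eGFP+ and 822, 692 and 973 FPKM in Epor-eGFP-. Of 12 neutrophil genes 11 fell, with sums of 13991, 17194 and 13225 FPKM in Epor-eGFP+ and 39040, 33594 and 24772 FPKM in Epor-eGFP-. All 8 monocyte genes fell, with sums of 1308, 1557 and 1245 FPKM in Epor-eGFP+ and 3005, 3027 and 4233 FPKM in Epor-eGFP-. No gene of these lists was listed at 0 in any library. Of 5 eosinophil genes 1 rose and 2 fell. Their sum was 2532, 12002 and 12832 FPKM in the 3 Epor-eGFP+ libraries, and 13135, 10238 and 8250.2 FPKM in the 3 Epor-eGFP- libraries, and Prg2 was listed at 0 in Epor-eGFP+ library 0. The sum of 5 T and NK genes was 231, 256 and 202 FPKM in Epor-eGFP+ and 83.4, 94.2 and 53.2 FPKM in Epor-eGFP-, in the members' order. Of the 3 of them that were tested, 1 rose and 2 fell. Of 6 B lineage genes 0 were called, with sums of 147, 146 and 210 FPKM in Epor-eGFP+ and 295, 103 and 363 FPKM in Epor-eGFP-. The part of these cells and states in the differences below was not tested. Total FPKM per library ran from 467176 to 501037 in Epor-eGFP+ and from 505141 to 519650 in Epor-eGFP-, and the read depth is unknown.

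The Snrp genes encode the Sm ring and proteins of the U1 and U2 snRNPs, and they held 7 of the 16 higher calls. Of the 11 genes, 7 were higher (63.6%, beside 22.7% of all genes tested) and 0 were lower (beside 26.3%). Their median log2 fold change was 0.34. Their summed level was 1118, 1143 and 1031 FPKM in the 3 Epor-eGFP+ libraries, and 869, 959 and 956 FPKM in the 3 Epor-eGFP- libraries, so the groups did not overlap. Without Epor-eGFP- library 0, 4 of the 11 were higher, beside 15.8% of all genes in that fit. Promoter windows of 3 of the 5 Sm genes that rose are shown, with that of Sf3b1, which fell. Shared control of these genes was not tested. They are the 250 bases before the RefSeq start (GRCm38.p6), read on the strand of the gene, and capitals mark matches on either strand to 5 motifs: CCGGAAG (the core of many ETS factor sites), CACGTG (an E box), CCAAT (the CCAAT box), GGGCGG (a GC box) and GCGCATG (part of the NRF1 site).
Snrpd2: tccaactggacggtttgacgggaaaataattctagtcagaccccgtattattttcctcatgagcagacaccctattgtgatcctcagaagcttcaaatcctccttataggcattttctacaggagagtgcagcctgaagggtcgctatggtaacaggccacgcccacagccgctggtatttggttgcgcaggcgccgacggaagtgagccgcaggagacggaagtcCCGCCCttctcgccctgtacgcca
Snrpf: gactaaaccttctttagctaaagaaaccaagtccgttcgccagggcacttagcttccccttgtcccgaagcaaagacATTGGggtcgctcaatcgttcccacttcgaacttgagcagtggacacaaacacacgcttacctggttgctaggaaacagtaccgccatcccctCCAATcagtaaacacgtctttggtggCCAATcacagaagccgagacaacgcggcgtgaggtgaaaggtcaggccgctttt
Snrpg: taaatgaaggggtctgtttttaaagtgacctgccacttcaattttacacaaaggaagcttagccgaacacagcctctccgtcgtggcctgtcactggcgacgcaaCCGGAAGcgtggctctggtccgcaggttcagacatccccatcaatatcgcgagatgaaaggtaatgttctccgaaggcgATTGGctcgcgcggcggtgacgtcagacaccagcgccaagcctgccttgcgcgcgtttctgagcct
Sf3b1: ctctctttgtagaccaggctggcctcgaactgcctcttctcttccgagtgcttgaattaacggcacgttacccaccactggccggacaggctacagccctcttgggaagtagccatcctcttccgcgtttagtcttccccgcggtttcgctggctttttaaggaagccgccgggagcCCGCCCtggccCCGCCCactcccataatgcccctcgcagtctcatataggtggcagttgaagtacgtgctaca

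The windows lie at chr7:19149588-19149837 on the plus strand for Snrpd2, at chr10:93589659-93589908 on the minus strand for Snrpf, at chr6:86371290-86371539 on the plus strand for Snrpg and at chr1:55027479-55027728 on the minus strand for Sf3b1. GENCODE M21 starts these genes inside the windows, at 19149722 for Snrpd2, 93589706 for Snrpf, 86371304 for Snrpg and 55027481 for Sf3b1. By that annotation most of the Snrpg window lies within the gene. The marked matches of Snrpg and Snrpd2 lie within the annotated genes, and those of Snrpf and Sf3b1 lie before them. Snrpf held 3 matches to CCAAT, Snrpg 1 each to CCAAT and CCGGAAG, Snrpd2 1 to GGGCGG and Sf3b1 2 to GGGCGG, so no searched motif was common to the 4. Windows were found for 57 of the 66 members, 75 windows in all because some genes have several starts. CCGGAAG was in 29.3% of the members' windows, against 14.3% of the windows of all genes tested and 6.91% of 32851 windows of all genes. CCAAT was in 48%, 35.3% and 33.8% of them, and GGGCGG in 65.3%, 57.5% and 32.7%. CACGTG was in 10.7%, 8.51% and 6.02%, and GCGCATG in 6.67%, 5.74% and 3.24%. Of the 10 windows of Snrp genes alone, 3 held CCGGAAG, 3 CCAAT, 5 GGGCGG, 2 CACGTG and 0 GCGCATG. A match says only that these letters are present, and the overlap of motifs with each other was not removed.

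Within the Sm ring, which is made of the proteins B, D1, D2, D3, E, F and G, 5 of 7 genes rose. That is 71.4%, beside 22.7% of all genes tested, and these 7 genes were grouped after their values were seen. Snrpd2 had 151, 144 and 143 FPKM in the 3 Epor-eGFP+ libraries, against 92.9, 109 and 102 FPKM in Epor-eGFP- libraries (log2 fold change 0.53, SE 0.08, adjusted p = 0.0026). Every Epor-eGFP+ library lay above every Epor-eGFP- library, by more than the spread within either group. Snrpf had 70.1, 72.9 and 63.5 FPKM in Epor-eGFP+, against 45.2, 53.7 and 47.7 FPKM in Epor-eGFP- (0.49, SE 0.09, adjusted p = 0.00522). Its exons overlap those of Ccdc38 on the opposite strand over 65.9% of their length, and the library kit does not mark strand, so reads of the 2 genes cannot be told apart there. Snrpd1 had 68.3, 74.0 and 60.4 FPKM in Epor-eGFP+, against 43.7, 54.6 and 47.4 FPKM in Epor-eGFP- (0.47, SE 0.11, adjusted p = 0.0129).

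Snrpg and Snrpd3 rose by less. Snrpg averaged 172 ± 10.3 FPKM in Epor-eGFP+ and 136 ± 12.3 FPKM in Epor-eGFP- (SD, n = 3 libraries each, log2 fold change 0.34, limma adjusted p = 0.0217), and Snrpd3 averaged 110.2 ± 7.41 and 88.1 ± 5.47 FPKM in the same order of groups (0.32, limma adjusted p = 0.0178). Their groups did not overlap, but both calls were lost without Epor-eGFP+ library 0 (adjusted p = 0.0763 for Snrpg and 0.0659 for Snrpd3), without Epor-eGFP+ library 1 (0.0628 and 0.0511) and without Epor-eGFP- library 0 (0.0746 and 0.0694). The other ring members did not pass. Snrpe had 119, 131 and 106 FPKM in Epor-eGFP+ and 102, 106 and 116 FPKM in Epor-eGFP- (0.13, 95% interval -0.10 to 0.37), and it passed without both libraries numbered 2 (limma adjusted p = 0.0449). Snrpb, the most abundant Snrp transcript per length, had 218, 206 and 195 FPKM in Epor-eGFP+ and 215, 212 and 225 FPKM in Epor-eGFP- (-0.08, interval -0.25 to 0.10, and 0.02 with libraries rescaled to a common total). The level of Snrpd2 per that of Snrpb was 0.694, 0.696 and 0.734 in Epor-eGFP+ and 0.431, 0.517 and 0.452 in Epor-eGFP-, a ratio chosen after the values were seen and not tested. Snrpb and its paralog Snrpn encode nearly the same protein, and Snrpn was not analysed here.

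Among proteins specific to the U1 and U2 snRNPs, Snrpa and Snrpa1 rose while Snrpc and Snrpb2 did not pass. Snrpa, the U1 protein that binds a loop of U1 RNA, had 66.1, 68.0 and 64.4 FPKM in Epor-eGFP+ and 41.5, 54.3 and 47.0 FPKM in Epor-eGFP- (log2 fold change 0.47, SE 0.10, adjusted p = 0.00898). Snrpa1, which encodes the U2 protein A', had 32.8, 38.5 and 30.0 FPKM in Epor-eGFP+ and 21.2, 27.1 and 21.3 FPKM in Epor-eGFP- (0.53, SE 0.13, adjusted p = 0.0151, and 0.0583 without Epor-eGFP- library 0). In both genes the lowest Epor-eGFP+ library lay above the highest Epor-eGFP- library. Exons of BC024978, on the opposite strand, cover 11% of the exonic length of Snrpa. Snrpb2, which encodes the partner of A' in the U2 snRNP, averaged 41.9 ± 1.52 FPKM in Epor-eGFP+ and 43.5 ± 3.85 FPKM in Epor-eGFP- (SD, n = 3 each), with a 95% interval of the difference from -0.24 to 0.14 on the log2 scale. Snrpc, a U1 protein, averaged 65.8 ± 2.39 and 65.1 ± 5.45 FPKM, in the same order of groups, with an interval from -0.18 to 0.21.

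**Figure D2:**
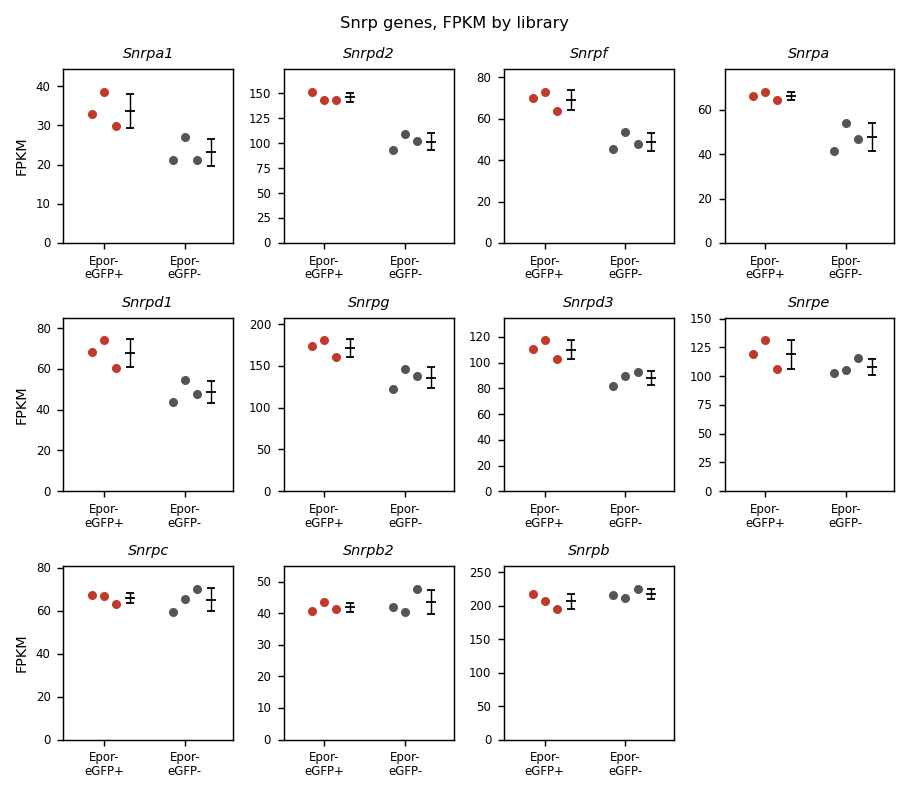
FPKM of the 11 Snrp genes, 1 panel a gene, with Epor-eGFP+ libraries on the left (red) and Epor-eGFP- libraries on the right (grey). Points are libraries 0, 1 and 2 from left to right, and the bar beside them gives the mean ± SD of 3 libraries. The groups do not overlap in the 7 called genes, and they overlap in Snrpe, Snrpc, Snrpb2 and Snrpb.

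The U2AF dimer reads the polypyrimidine tract and the AG at the end of the intron. All 3 U2af genes rose by small amounts (median log2 fold change 0.28), beside 22.7% of all genes tested. U2af2, the large subunit, had 119, 119.6 and 110.3 FPKM in Epor-eGFP+ and 95.0, 101 and 90.1 FPKM in Epor-eGFP- (0.28, SE 0.07, adjusted p = 0.0191). U2af1, the small subunit, had 85.9, 91.5 and 73.6 FPKM in Epor-eGFP+ and 66.4, 73.6 and 61.4 FPKM in Epor-eGFP- (0.31, SE 0.11, adjusted p = 0.0480), and the lowest Epor-eGFP+ library was level with the highest Epor-eGFP- library. U2af1l4, a paralog of U2af1, had 18.8, 18.7 and 17.7 FPKM in Epor-eGFP+ and 15.5, 15.2 and 16.8 FPKM in Epor-eGFP- (0.20, SE 0.07, adjusted p = 0.0481). It missed the threshold when the column number entered as a replicate block (0.0526). Exons of the annotated gene Gm49396 overlap 65.6% of the exonic length of U2af1l4, and its value is uncertain for that reason. These calls rested on single libraries. U2af1 and U2af2 lost theirs without Epor-eGFP+ library 0 (adjusted p = 0.140 and 0.0787), Epor-eGFP+ library 1 (0.128 and 0.0540), Epor-eGFP- library 0 (0.123 and 0.0646) or Epor-eGFP- library 2 (0.131 and 0.0506). U2af1l4 lost its call without any library but Epor-eGFP- library 2 (0.0520 to 0.154).

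The SF3A and SF3B complexes belong to the U2 snRNP and hold it at the branch point. Of their 9 genes 3 rose (33.3%, beside 22.7% of all genes tested), 1 fell (11.1%, beside 26.3%) and 5 did not pass. Their median log2 fold change was 0.11. Sf3b1, the large scaffold subunit that contacts the branch point and is recurrently mutated in human myelodysplastic syndromes, had the largest fall of the members on the log2(FPKM + 1) scale, while as a percentage of the Epor-eGFP- mean that of Prpf18 was about as large (-24.4% for Sf3b1 and -24.6% for Prpf18). Sf3b1 had 65.7, 69.4 and 58.5 FPKM in Epor-eGFP+ and 87.3, 83.4 and 85.3 FPKM in Epor-eGFP- (-0.40, SE 0.08, limma adjusted p = 0.00694). The groups did not overlap, and the call held in every alternative tried, which were 14 in number. Sf3b3, which packs against Sf3b1 in the complex, moved the other way, with 64.0, 67.4 and 56.4 FPKM in Epor-eGFP+ and 47.6, 53.2 and 46.1 FPKM in Epor-eGFP- (0.35, SE 0.09, adjusted p = 0.0209). The level of Sf3b1 per that of Sf3b3 was therefore 1.03, 1.03 and 1.04 in Epor-eGFP+ and 1.83, 1.57 and 1.85 in Epor-eGFP-, a ratio chosen after the values were seen and not tested. Both genes are read from the minus strand, Sf3b1 at chr1:54985169-55027481 and Sf3b3 at chr8:110810239-110846787 (GRCm38, GENCODE M21), and FPKM values are for whole genes.

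Sf3a3, a subunit of SF3A, rose as well, with 41.0, 42.6 and 35.1 FPKM in Epor-eGFP+ and 28.9, 34.4 and 28.7 FPKM in Epor-eGFP- (log2 fold change 0.36, SE 0.11, adjusted p = 0.0293). Sf3b4, an RNA-binding subunit of SF3B, had 58.7, 63.8 and 55.3 FPKM in Epor-eGFP+ and 46.4, 52.9 and 49.6 FPKM in Epor-eGFP- (0.25, SE 0.08, adjusted p = 0.0430). The calls of Sf3b3, Sf3a3 and Sf3b4 were lost without Epor-eGFP+ library 0 (adjusted p = 0.0772, 0.101 and 0.114), Epor-eGFP+ library 1 (0.0583, 0.0803 and 0.114), Epor-eGFP- library 0 (0.0730, 0.1 and 0.144) or Epor-eGFP- library 2 (0.0622, 0.0862 and 0.0899). Sf3a1 (0.20), Sf3b5 (0.11), Sf3a2 (0.11), Sf3b6 (-0.08) and Sf3b2 (-0.09) did not pass, and Sf3a1 passed with the replicate block (adjusted p = 0.0266). Sf3b2 was the most abundant of the 9 per length, at 118 ± 4.84 FPKM in Epor-eGFP+ and 126 ± 3.41 FPKM in Epor-eGFP- (SD, n = 3 each).

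PRPF genes, which were named after yeast pre-mRNA processing mutants and act at different steps, moved both ways. Of 13, 3 rose, 2 fell and 8 did not pass, and the median log2 fold change was 0.11. The 23.1% that rose lies near the 22.7% of all genes tested, and 15.4% fell, beside 26.3%. Prpf19, the ubiquitin ligase that heads the complex activating the spliceosome, had 32.2, 32.5 and 29.4 FPKM in Epor-eGFP+ and 20.5, 23.8 and 19.2 FPKM in Epor-eGFP- (0.55, SE 0.09, limma adjusted p = 0.00388). Prpf31, a U4 snRNP protein that joins it to the tri-snRNP, had 23.8, 23.8 and 20.2 FPKM in Epor-eGFP+ and 14.3, 17.4 and 15.1 FPKM in Epor-eGFP- (0.51, SE 0.10, adjusted p = 0.00672). Prpf40b, which has been linked to the U1 snRNP, had 1.88, 1.96 and 1.45 FPKM in Epor-eGFP+ and 0.810, 1.01 and 0.623 FPKM in Epor-eGFP- (0.61, SE 0.13, adjusted p = 0.00929). It was the least abundant member, and its fold change, the largest of the 66, is understated by the added 1 FPKM. Its Epor-eGFP- mean of 0.813 FPKM lay below the filter, so Prpf40b was tested only because of its level in Epor-eGFP+. In these genes the groups did not overlap. Exons of Gm15927, on the opposite strand, cover 18.1% of the exonic length of Prpf31.

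Prpf18, which acts in the second catalytic step, fell to 15.6, 15.3 and 16.0 FPKM in Epor-eGFP+, against 20.7, 20.1 and 21.5 FPKM in Epor-eGFP- (log2 fold change -0.39, SE 0.06, adjusted p = 0.00342). The gap between the groups was larger than the spread within either. Prpf38b had 31.0, 33.4 and 33.0 FPKM in Epor-eGFP+ and 37.1, 37.2 and 45.5 FPKM in Epor-eGFP- (-0.29, SE 0.10, adjusted p = 0.0443). Its call was lost without any 1 library except Epor-eGFP- library 1 (0.0629 to 0.143) and with libraries rescaled to a common total (0.157). Prpf39 did not pass (-0.29, adjusted p = 0.0657), although its groups did not overlap, and it passed without Epor-eGFP+ library 1 (0.0283).

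Prpf8, the core protein of the catalytic centre and the most abundant PRPF transcript per length, had 70.5, 79.2 and 69.6 FPKM in Epor-eGFP+ and 64.6, 70.3 and 63.9 FPKM in Epor-eGFP- (0.14, 95% interval -0.05 to 0.33). Its groups overlapped. Prpf4, a U4/U6 protein, averaged 6.57 ± 0.580 FPKM in Epor-eGFP+ and 5.97 ± 0.401 FPKM in Epor-eGFP- (SD, n = 3 each, interval -0.10 to 0.34), and Prpf4b, a kinase of the spliceosome, averaged 19.6 ± 1.84 and 20.7 ± 0.440 FPKM in the same order of groups (interval -0.27 to 0.12). Prpf3 (0.15), Prpf38a (0.11) and Prpf6 (-0.03) did not pass either.

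**Figure D3:**
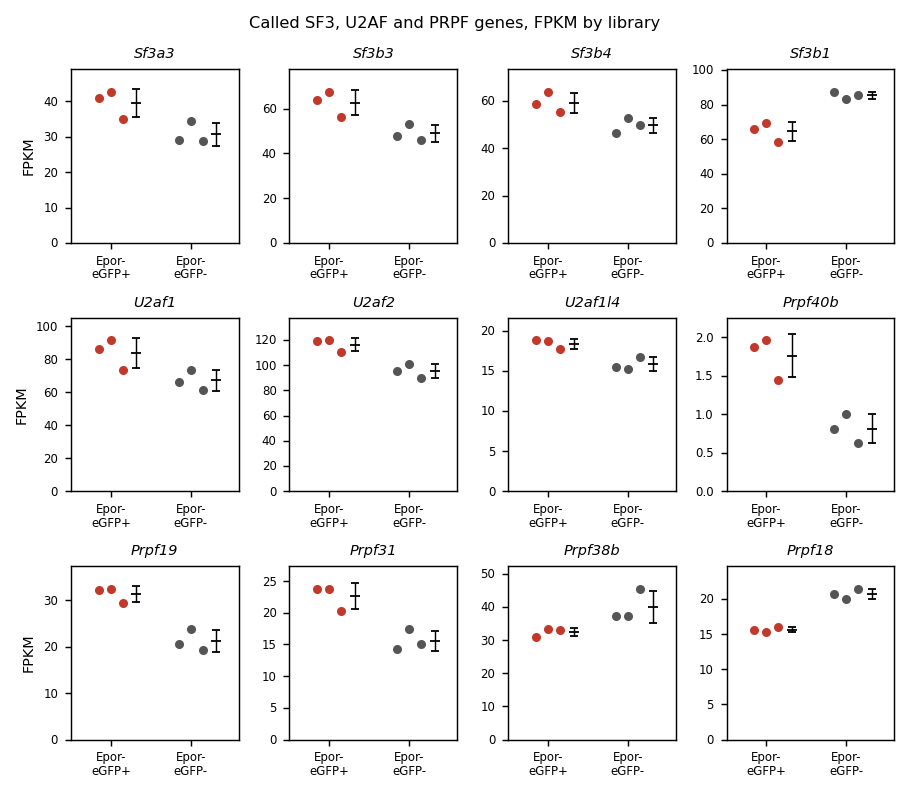
FPKM of the 12 called SF3, U2AF and PRPF genes, with Epor-eGFP+ libraries 0, 1 and 2 on the left (red), Epor-eGFP- libraries 0, 1 and 2 on the right (grey), and the mean ± SD of 3 libraries as a bar. Sf3b1, Prpf38b and Prpf18 are lower in Epor-eGFP+ and the other 9 genes are higher.

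No SR protein gene passed in the fit without a block, in which 0 of 10 rose and 0 fell (median log2 fold change 0.11), and 2 had an unadjusted p under 0.05. Of all genes in that fit, 22.7% rose and 26.3% fell. In the fit that took the column number as a block, 4 rose (Srsf6, Srsf1, Srsf7 and Srsf2) and 1 fell (Srsf5), beside 28% and 30.4% of all genes in the same fit. Srsf2, the most abundant SR transcript per length, shows the pattern: it had 196, 197 and 148 FPKM in the 3 Epor-eGFP+ libraries, and 155, 166 and 125 FPKM in the 3 Epor-eGFP- libraries (0.28, SE 0.15, adjusted p = 0.175, and 0.0127 with the block). Library 2 was lowest in both groups, and each Epor-eGFP+ library lay above the Epor-eGFP- library of the same number. Without Epor-eGFP+ library 2 the adjusted p was 0.0421. Exons of Mettl23 and Mfsd11, on the opposite strand, cover 15.6% and 9.7% of the exonic length of Srsf2. All 10 Srsf genes were lowest in library 2 within Epor-eGFP+, and 8 of 10 within Epor-eGFP-, and the share of all genes with that order was not counted.

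Srsf6 and Srsf1 came closest to passing. Srsf6 had 54.6, 57.2 and 45.8 FPKM in Epor-eGFP+ and 42, 46.0 and 36.3 FPKM in Epor-eGFP- (a difference of 0.33 on the log2 scale, adjusted p = 0.0528, against 0.00532 with the block). It passed without Epor-eGFP+ library 2 (0.0217) or Epor-eGFP- library 1 (0.0412). Srsf1, the founding SR protein, had 61.0, 75.0 and 56.4 FPKM in Epor-eGFP+ and 49.5, 57.5 and 46.4 FPKM in Epor-eGFP- (0.32, adjusted p = 0.0793, 0.00714 with the block and 0.0432 without Epor-eGFP+ library 2). Srsf7 averaged 49.7 ± 9.25 FPKM in Epor-eGFP+ and 40.7 ± 6.78 FPKM in Epor-eGFP- (SD, n = 3 each, limma adjusted p = 0.203, and 0.0086 with the block). Srsf5 ran the other way, at 146, 149 and 99.96 FPKM in Epor-eGFP+ and 177, 177 and 134 FPKM in Epor-eGFP- (-0.32, adjusted p = 0.192, and 0.0116 with the block). Srsf3 had 127, 146 and 109.7 FPKM in Epor-eGFP+ and 114, 127 and 109.7 FPKM in Epor-eGFP- (0.11, 95% interval -0.17 to 0.39). Srsf10, Srsf11, Srsf9 and Srsf4 did not pass in either fit, with values from -0.20 to 0.10.

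SR protein genes are known to limit their own mRNA by including exons that send the transcript to nonsense-mediated decay. In GENCODE M21, 9 of 10 Srsf genes carry at least 1 transcript annotated for that decay, against 3 of 3 U2af, 7 of 13 Prpf, 10 of 20 Hnrnp, 4 of 11 Snrp and 1 of 9 SF3 genes, 34 of all 66 members and 30.3% of 10313 tested protein-coding genes. FPKM per gene does not separate these transcripts from the coding ones.

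The hnRNP genes made up the largest share of the members' level, at 2524, 2704 and 2318 FPKM in the 3 Epor-eGFP+ libraries and 2384, 2470 and 2252 FPKM in the 3 Epor-eGFP- libraries. None of the 20 passed (0 higher, 0 lower, and 2 with an unadjusted p under 0.05), and their median log2 fold change was 0.05. Among all genes tested, 22.7% rose and 26.3% fell. With the replicate block 3 of 20 rose, Hnrnpab, Hnrnpa1 and Hnrnpa0, a smaller share than the 28% of all genes in that fit. Hnrnpab had 232, 247 and 188 FPKM in Epor-eGFP+ and 177, 196 and 141 FPKM in Epor-eGFP- (0.38, SE 0.15, adjusted p = 0.0767, 0.00503 with the block and 0.0323 without Epor-eGFP+ library 2). Its exons overlap those of Phykpl on the opposite strand over 29.1% of their length. Hnrnpa1, a repressor of many exons, had 208, 211 and 182 FPKM in Epor-eGFP+ and 180.3, 168 and 155 FPKM in Epor-eGFP- (0.25, SE 0.09, adjusted p = 0.0585, 0.0177 with the block, 0.0344 with libraries rescaled and 0.0298 without Epor-eGFP+ library 2). Its groups did not overlap, and it has processed pseudogenes that can share its reads. Hnrnpa0 averaged 126 ± 12 FPKM in Epor-eGFP+ and 111 ± 6.84 FPKM in Epor-eGFP- (SD, n = 3 each, limma adjusted p = 0.168, 0.0467 with the block and 0.0477 without Epor-eGFP+ library 2).

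The other hnRNP genes lay close to 0. Hnrnpf, the most abundant of the 66 members per length, had 335, 371 and 319 FPKM in Epor-eGFP+ and 342, 368 and 327 FPKM in Epor-eGFP- (log2 fold change -0.02, 95% interval -0.23 to 0.20, and 0.08 with libraries rescaled to a common total). Hnrnpa2b1, a partner of Hnrnpa1 in hnRNP particles, had 279, 306 and 263 FPKM in Epor-eGFP+ and 252, 272 and 250.1 FPKM in Epor-eGFP- (0.13, interval -0.07 to 0.33). Hnrnpl and its paralog Hnrnpll, which silences exons of Ptprc in lymphocytes, had log2 fold changes of 0.00 (interval -0.20 to 0.20) and -0.07 (interval -0.26 to 0.11). The remaining 13 hnRNP genes had log2 fold changes from -0.10 to 0.11, and their groups overlapped. Their 95% intervals reached no lower than -0.42 and no higher than 0.36, and they do not show that levels were equal.

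**Figure D4:**
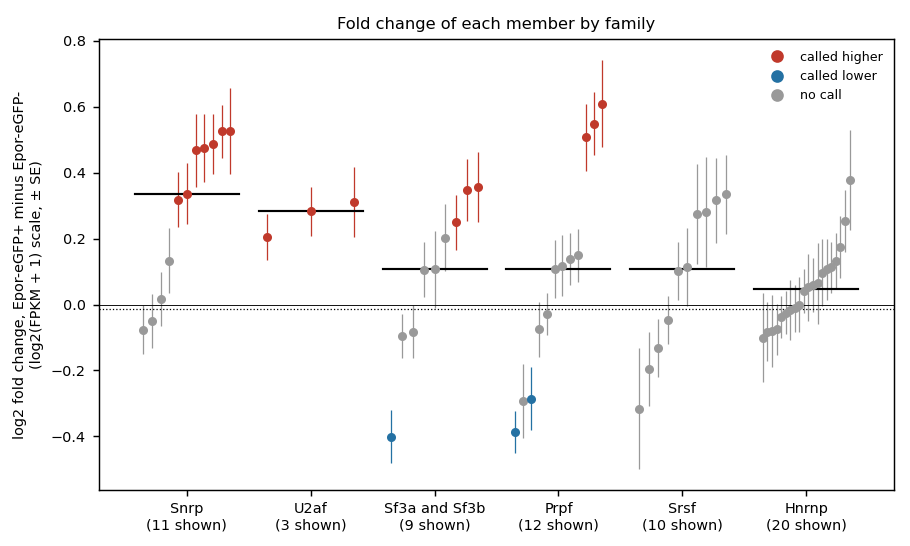
Log2 fold change, Epor-eGFP+ minus Epor-eGFP-, of each member but 1 (± SE from limma), grouped by family and sorted within it. Red and blue points are genes called higher and lower, grey points have no call, black bars are medians over the whole family and the dotted line is the median of all genes tested (-0.01). All U2af genes and all Snrp genes but Snrpb and Snrpb2 lie above the dotted line, and the Hnrnp genes centre near it.

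Other genes of the pathway were read from lists chosen with earlier results of these data known. The list of snRNP assembly and Sm protein methylation, the machinery that loads the Sm ring onto snRNA in the cytoplasm, had 10 of 20 genes (50%) higher, beside 22.7% of all genes tested, 0 lower and a median log2 fold change of 0.25. Prmt5, which methylates Sm proteins, had 24.8, 26.9 and 22.6 FPKM in Epor-eGFP+ and 13.6, 15.7 and 10.6 FPKM in Epor-eGFP- (0.86, SE 0.14, limma adjusted p = 0.00315). Coprs, a cofactor of Prmt5, had 6.08, 5.07 and 8.80 FPKM in Epor-eGFP+ and 2.15, 2.55 and 2.95 FPKM in Epor-eGFP- (1.08, SE 0.19, adjusted p = 0.00388). Snupn, which brings assembled snRNPs into the nucleus, had 6.21, 5.96 and 9.50 FPKM in Epor-eGFP+ and 3.54, 3.14 and 2.93 FPKM in Epor-eGFP- (0.95, SE 0.17, adjusted p = 0.00433). In these 3 genes the lowest Epor-eGFP+ library was above the highest Epor-eGFP- library, and Coprs and Snupn were highest in Epor-eGFP+ library 2, in which most members were lowest. Gemin4 (0.84), Gemin6 (0.68), Gemin5 (0.66) and Gemin8 (0.52) of the SMN complex rose as well, chosen after their values were seen, and Gemin8 lost its call without Epor-eGFP+ library 0 (limma adjusted p = 0.0570), while Smn1 (0.19) and Gemin2 (-0.02) did not pass. Clns1a and Wdr77, also among the 10, lost their calls without Epor-eGFP+ library 0 (0.0894 and 0.0967) or library 1 (0.0581 and 0.0845). They also lost them without Epor-eGFP- library 0 (0.0816 and 0.0707) or library 2 (0.0588 and 0.0658).

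In the list of SR protein kinases, transport and speckle scaffold genes, 1 of 24 rose (4.17%, beside 22.7% of all genes tested) and 6 fell (25%, near the 26.3% of all genes tested), with a median of -0.03. Of its kinases, Clk1, Clk3, Clk4, Dyrk1a and Srpk2 fell and Srpk1 rose. Clk1 had 44.9, 36.2 and 33.2 FPKM in Epor-eGFP+ and 78.4, 54.0 and 61.4 FPKM in Epor-eGFP- (log2 fold change -0.74, SE 0.16, adjusted p = 0.00958). Srpk2 had 11.2, 11.0 and 9.91 FPKM in Epor-eGFP+ and 18.3, 17.8 and 14.6 FPKM in Epor-eGFP- (-0.61, SE 0.10, adjusted p = 0.00371). Clk4 averaged 14.5 ± 1.53 FPKM in Epor-eGFP+ and 22.4 ± 3.67 FPKM in Epor-eGFP- (SD, n = 3 each, limma adjusted p = 0.0109), and missed the threshold without both libraries numbered 2 (0.0504). Clk3 (-0.55), Dyrk1a (-0.36) and the speckle scaffold Son (-0.32) were the other genes that fell, and Srpk1 rose (0.40, adjusted p = 0.0135, and 0.0513 without Epor-eGFP+ library 0), all named after their values were seen. Son lost its call without Epor-eGFP+ library 0 (0.0621) or Epor-eGFP- library 0 (0.0565). Without Epor-eGFP+ library 2, 4 genes of this list rose, beside 22.6% of all genes.

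**Figure D5:**
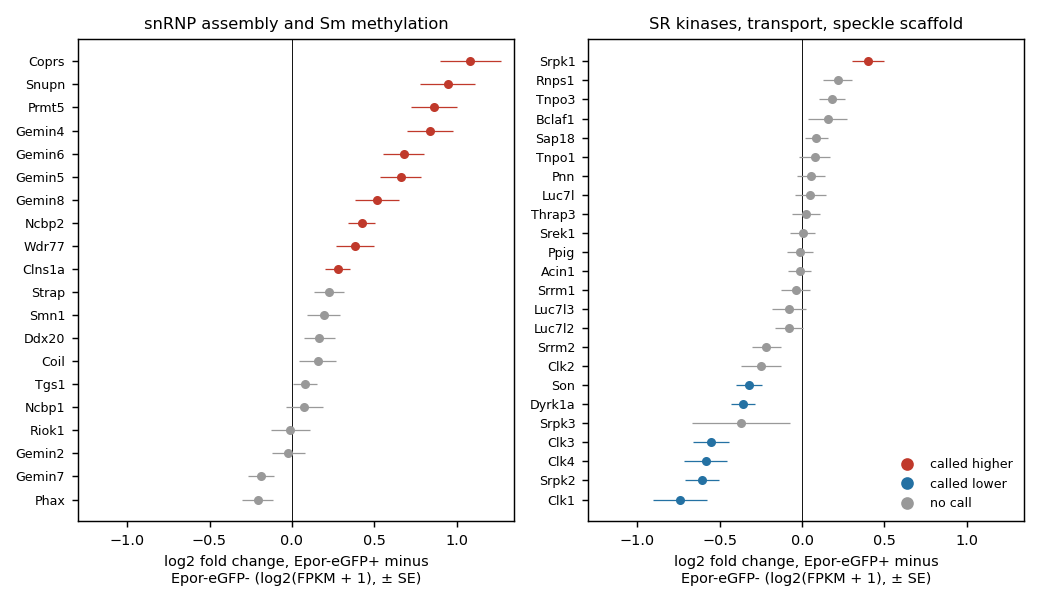
Log2 fold change, Epor-eGFP+ minus Epor-eGFP- (± SE from limma), of 20 genes of snRNP assembly and Sm methylation on the left and of 24 genes of SR kinases, transport and speckle scaffold on the right. Red points were called higher, blue points lower and grey points had no call. Coprs, Snupn and Prmt5 head the left panel, and Clk1 and Srpk2 are the lowest in the right panel.

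Of 50 other spliceosome proteins 14 rose (28%, beside 22.7% of all genes tested) and 6 fell (12%, beside 26.3%), with a median log2 fold change of 0.04. Lsm7 (0.60, adjusted p = 0.00406) and Lsm2 (0.53, adjusted p = 0.00599), which belong to the ring on U6 RNA, rose, and Syf2, a protein of the activated spliceosome, fell to 43.0, 41.6 and 43.2 FPKM in Epor-eGFP+, against 68.4, 60.3 and 74.9 FPKM in Epor-eGFP- (-0.66, adjusted p = 0.00174). The number that rose was 6 without Epor-eGFP+ library 0 (14.9% of all genes), 8 without Epor-eGFP+ library 1 (20.4%), 6 without Epor-eGFP- library 0 (15.8%) and 9 without Epor-eGFP- library 2 (17.9%). The number that fell was 3 without Epor-eGFP+ library 0 (18.8% of all genes) or Epor-eGFP- library 2 (22.1%). Of 46 other splicing regulators 2 rose (4.35%) and 12 fell (26.1%, about the share of all genes tested), with a median of -0.01. Those that fell included Rbm38 (-0.61, adjusted p = 0.00111), Ptbp2 (-0.46, adjusted p = 0.00966) and Pcbp4 (-0.64, adjusted p = 0.0254). Pcbp4, at 1.69 ± 0.424 FPKM in Epor-eGFP+ and 3.20 ± 0.813 FPKM in Epor-eGFP- (SD, n = 3 each), lost its call without any 1 of libraries 0 and 1 of either group. The number of regulators that fell was 6 without Epor-eGFP+ library 0 and 7 without Epor-eGFP- library 0 (18.8% and 19.3% of all genes), and the number that rose was 6 without Epor-eGFP+ library 2 and 0 without any 1 of Epor-eGFP+ libraries 0 and 1 and Epor-eGFP- libraries 0 and 2. With the replicate block 9 of 46 rose, a smaller share than the 28% of all genes in that fit.

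The 11 minor spliceosome genes, which act on the rare U12-type introns, had a median log2 fold change of -0.12. Of these, 0 rose (beside 22.7% of all genes tested) and 1 fell (9.09%, beside 26.3%). That gene, Armc7, had 12.6, 9.90 and 14.1 FPKM in Epor-eGFP+ and 26.9, 18.2 and 26.9 FPKM in Epor-eGFP- (log2 fold change -0.91, SE 0.18, adjusted p = 0.00668). With the block or without Epor-eGFP- library 1, 2 fell. Of 7 exon junction complex genes 1 rose (14.3%, beside 22.7% of all genes tested) and 2 fell (28.6%, beside 26.3%). Magoh rose (0.27, limma adjusted p = 0.0269), and Upf3a (-0.36, adjusted p = 0.00648) and Casc3 (-0.21, adjusted p = 0.0499) fell. Magoh lost its call without any 1 of Epor-eGFP+ libraries 0 and 1 and Epor-eGFP- libraries 0 and 2 (0.0739 to 0.0889), and Casc3 without any 1 library except Epor-eGFP- library 1 (0.0950 to 0.164).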

How the data were processed

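RNA sequencing libraries were made from total RNA with a TruSeq RNA kit, per the labels' protocols. The values are FPKM that the authors deposited in a single table. Build mm10 is named in the submitters' processing notes, and so are Cufflinks 2.2.1, TopHat2 2.1.0, Trimmomatic 0.35 and bcl2fastq 2.19.1.403, with no role or order. Their annotation, their filters and how libraries were scaled are not stated there. FPKM holds no counts, so no counting interval is given, and reads of similar genes were shared by estimation.

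Columns name the group and a number from 0 to 2, so they were assigned to groups only. Deviations from the group means correlated at 0.25, 0.38 and 0.35 between same-numbered libraries over 10964 genes, each above 0.1, and the numbers were treated as pairs in an alternative with a replicate block. No label says what they mark.

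Genes that averaged 1 FPKM or more were fitted on log2(FPKM + 1) with limma 3.58.1 in R 4.3.3 (group only, trended eBayes, two-sided, Benjamini-Hochberg over all genes tested, threshold 0.05). Intervals are limma's 95% intervals of a difference, not adjusted. The fit was also run on simulated data with known changes, in which noise was drawn independently for each library. Such data lack the deviations that same-numbered libraries share, and no result here rests on that run. Members and lists were chosen with earlier results of these data known. Genes given per library are up to 4 called members with the largest rise and fall in each family, the most abundant member, a fixed set of names and up to 3 called genes of each other list, and further members were named after their values were seen. Positions are from GENCODE M21 (GRCm38) and promoters from RefSeq. Of 74 RefSeq symbols that match the rule, 66 were analysed here. The values of 1 member are not reported here, and the counts include it.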

Additional observations from a re-analysis of the deposited data

How the results depend on the processing

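Counts of called members and of called genes in the other splicing lists were recomputed under 14 alternatives. So were the medians of the members and their families and the log2 fold changes of members. Summed levels were recomputed only with rescaling, quantile normalization or libraries left out. Ratios, library orders, exon overlaps, transcript annotation and promoter motifs were not recomputed. No member was called in the opposite direction in any alternative, and 7 of the 16 higher calls (Prpf19, Prpf31, Prpf40b, Snrpa, Snrpd1, Snrpd2 and Snrpf) and 2 of the 3 lower calls (Sf3b1 and Prpf18) held in each alternative that tested the gene. The filter at 5 FPKM left Prpf40b untested, and that gene passed the filter at 1 FPKM only through Epor-eGFP+. The cause of the changes below was not tested, except that leaving out a library also lowers the number of samples.

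A replicate block on the column number, taken as a pairing, gave 23 higher and 4 lower members: Srsf genes higher 4 and lower 1, Hnrnp higher 3, minor spliceosome lower 2, other regulators higher 9 and kinases higher 2. Without an eBayes trend, U2af had 1 higher gene, Prpf 1 lower, other regulators 1 higher and the exon junction complex 1 lower. A pseudocount of 0.1 FPKM, and no filter on low values, each left 1 lower exon junction gene.

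Rescaling to a common total moved the median of all genes to 0.08 on the log2 scale. It gave 1 lower Prpf gene, 1 higher Srsf, 1 higher Hnrnp, 3 lower other spliceosome, 1 higher minor spliceosome, 5 higher and 6 lower other regulators and 1 lower exon junction gene. The median log2 fold change was then 0.44 for Snrp, 0.38 for U2af, 0.21 for SF3 and 0.14 for Hnrnp genes, and the summed level was higher by 27.0% for Snrp, 31.5% for U2af, 10.2% for SF3 and 10.8% for Prpf genes. Quantile normalization gave 1 higher Srsf, 2 higher Hnrnp, 3 lower minor spliceosome, 5 higher other regulators and 1 lower exon junction gene, medians of 0.49 for Snrp and 0.14 for Hnrnp genes, and sums higher by 18.3% for all members, 28.8% for Snrp, 8.19% for SF3 and 18.3% for Hnrnp genes.

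Leaving out libraries gave 7 to 21 higher members, with 4 to 8 higher Snrp, 0 to 3 U2af, 0 to 3 SF3, 0 to 3 Srsf and 0 to 3 Hnrnp genes, and with 1 to 2 lower Prpf and 0 to 1 lower Srsf genes. The SF3 median ran from 0.06 to 0.20. In the other lists the ranges were 6 to 15 higher and 3 to 6 lower other spliceosome genes, 1 to 2 lower minor spliceosome genes, 0 to 6 higher and 6 to 10 lower regulators, 0 to 4 higher kinase-list genes, 0 to 1 lower assembly genes, and 0 to 1 higher and 1 to 2 lower exon junction genes.

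Members near 0 changed sign without being called. Rescaling gave log2 fold changes of 0.025 for Snrpb, 0.006 for Sf3b2, 0.085 for Hnrnpf, 0.022 for Prpf4b, 0.10 for Hnrnpl and 0.024 for Hnrnpll, and quantile normalization 0.15 for Snrpb, 0.026 for Sf3b2, 0.14 for Hnrnpf and 0.12 for Hnrnpl. Leaving out single libraries moved Hnrnpf between -0.077 and 0.032 and Hnrnpl between -0.050 and 0.069, and Hnrnpl was at 0.051 without both libraries numbered 2. Read depth is unknown, so precision rests on the spread between 3 libraries a group.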
